A study of Homo sapiens with 4 samples.

Results

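Activin A is a TGF-β family ligand that patterns the primitive streak, and its signal passes through a short chain of receptors and SMAD proteins. The 10 genes described here encode the steps of that chain: the type II receptors ACVR2A and ACVR2B, the type I receptor ACVR1B, the signal transducers SMAD2, SMAD3 and SMAD4, and the inhibitors SMAD7, SKI, SKIL and PMEPA1. They were taken from the expression table by gene symbol, each had 1 row there, and they are 10 of 56595 symbols in all. The cells were H1, a human embryonic stem cell line, at day 2 of differentiation toward blood. All 4 libraries came from cells given 40 ng/ml activinA and 50 ng/ml BMP4, a ligand that starts mesoderm formation, and the study's methods give these doses the other way round. Libraries DMSO 1 and DMSO 2 were the solvent controls, and IWP2 1 and IWP2 2 came from cells that also received IWP2, a small molecule that blocks Porcupine, the enzyme that lipid-modifies Wnt proteins so that they can be secreted. The dose of IWP2 is not given in the sources used here. Each library was bulk RNA of a single cell line, and the labels do not say whether same-group libraries came from separate cultures, so p-values measure only the spread between these libraries, which may be technical.

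As background, activin binds the type II receptors, which activate the type I receptor kinase ACVR1B, and that kinase phosphorylates SMAD2 and SMAD3. The phosphorylated SMADs join SMAD4, enter the nucleus and work with partners such as FOXH1 on genes of the mesendoderm. SMAD7, SKI, SKIL and PMEPA1 hold the pathway back, and SMAD7, SKIL and PMEPA1 are themselves known to be induced by SMAD signaling in many cells. The comparison of IWP2 with DMSO asks how the transcripts of this chain stood when Wnt secretion was blocked while activin and BMP4 were supplied from outside. Levels are FPKM (fragments per kilobase of transcript, scaled to the mapped fragments of the library), a scale per length, so that genes can be set beside each other. Changes are given on the log2(FPKM + 1) scale as IWP2 minus DMSO, which understates the change of low genes. A gene was called changed at a Benjamini-Hochberg adjusted p under 0.05 in limma, fitted over 15957 genes.

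The libraries sorted by treatment. Replicates of a group correlated at r = 0.975 for DMSO and 0.981 for IWP2 across genes, which are not independent replicates, against 0.938 to 0.948 between groups. Of 10 Wnt target genes, 8 were called lower with IWP2. All 8 nascent mesoderm markers were called lower, and their summed level was 1115 to 1419 FPKM in DMSO against 150.1 to 172.4 FPKM in IWP2. The summed level of 7 pluripotency markers was 1238 to 1416 FPKM in DMSO and 2499 to 2505 FPKM in IWP2. Of these 7, POU5F1, SOX2 and DPPA4 were called higher, TDGF1 was called lower, and NANOG, LIN28A and L1TD1 were not called. POU5F1 had the highest level of them in every library, at 750.7 and 571.4 FPKM in DMSO and 1854 and 1844 FPKM in IWP2. SOX2, a pluripotency factor, stood at 0.193 and 0.174 FPKM in DMSO and 35.6 and 36.1 FPKM in IWP2. In bulk RNA, fewer cells of a type and less RNA per cell cannot be told apart, and the part of these cell-state markers in the results below was not tested. Endothelial and blood genes were low or near 0 apart from KDR in both groups and RUNX1 in DMSO, with PTPRC at 0 in 3 of 4 libraries. RUNX1 was at 2.51 and 2.35 FPKM in DMSO and at 0.210 and 0.350 FPKM in IWP2. KDR and RUNX1, the 2 genes of this list tested, were both called lower. Among 5 endoderm markers 4 were called lower, of 2 neuroectoderm markers tested OTX2 was called lower, and of 3 fibroblast markers tested LUM was called lower.

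Among the 10 genes, ACVR2A and SMAD2 fell with IWP2, PMEPA1 rose, and the other 7 did not pass the test. Over all genes tested, 13.3% were called, made up of 5.86% of all genes higher and 7.39% lower. The 3 called of 10 genes is a count to read against that share. In 7 of the 10 genes both IWP2 libraries lay below both DMSO libraries, and in 2, SKIL and PMEPA1, both lay above. Over all genes the matching shares were 31% lower and 27.6% higher, or 58.6% in either direction. The median change of the 10 genes was -0.34 on the log2 scale, beside -0.014 for all genes tested.

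**Figure D1:**
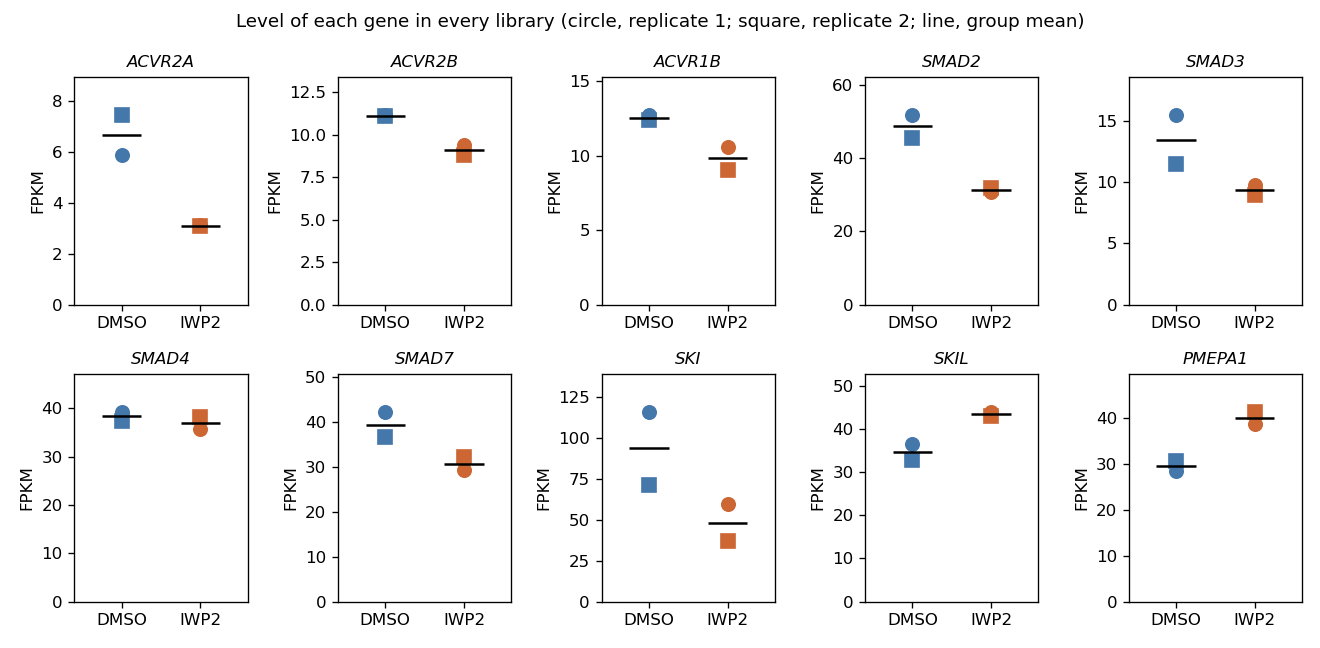
FPKM of each of the 10 genes (vertical axis, linear, from 0) in the DMSO and IWP2 libraries, with circles for replicate 1, squares for replicate 2 and a line at the mean of each group. The points of the groups are apart for 9 genes and mixed for SMAD4, and the replicates of SKI are the furthest apart.

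The receptors that bind activin first are ACVR2A and ACVR2B, and of these ACVR2A fell. ACVR2A (chromosome 2, 147844517 to 147930826, plus strand, GRCh38) was at 5.89 and 7.44 FPKM in DMSO and at 3.12 and 3.07 FPKM in IWP2. The IWP2 pair was nearly identical and lay well under the lower DMSO library. Its mean fell to 46.4% of the DMSO mean, a log2 change of -0.90 ± 0.15 (SE, n = 2 per group, limma adjusted p = 0.0240). ACVR2B (chromosome 3, 38453851 to 38493142, plus strand) was at 11.2 and 11.1 FPKM in DMSO and at 9.40 and 8.82 FPKM in IWP2. The groups did not overlap for ACVR2B either, but its log2 change of -0.26 had a 95% interval of -0.53 to 0.0019 and did not pass the test (limma adjusted p = 0.176).

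Set within each library, ACVR2A made up 34.5% and 40.1% of the summed FPKM of the type II pair in DMSO and 24.9% and 25.8% in IWP2. ACVR2B was therefore the more abundant of the pair in all 4 libraries. The log2 ratio of ACVR2A to ACVR2B differed by -0.81 (IWP2 minus DMSO), with group SDs of 0.24 and 0.051. An exact two-sided permutation test gave p = 0.333 for this ratio, which is the smallest p that 2 libraries against 2 allow (adjusted p = 0.556 over 5 ratios). The summed level of the pair was 17.1 and 18.5 FPKM in DMSO and 12.5 and 11.9 FPKM in IWP2.

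ACVR1B, the type I receptor kinase also called ALK4 (chromosome 12, 51951667 to 51997078, plus strand), was at 12.7 and 12.4 FPKM in DMSO and at 10.6 and 9.04 FPKM in IWP2. Both IWP2 libraries were lower, and the log2 change was -0.33 with a 95% interval of -0.63 to -0.024 (limma adjusted p = 0.150, not called). By mean FPKM the 3 receptor genes were the least abundant of the 10 in DMSO. Even so, ACVR2A, the lowest, ranked at the 39.3 percentile of mean FPKM among all genes tested, and ACVR1B at the 58.3 percentile.

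The call on ACVR2A rested on having all 4 libraries. Its limma adjusted p was 0.0551 without DMSO 1, 0.0880 without DMSO 2, 0.170 without IWP2 1 and 0.164 without IWP2 2, and its log2 change stayed between -1.04 and -0.75 in these fits. With no filter on low genes its adjusted p was 0.101. ORC4, which overlaps the ACVR2A locus by 430 bases on the opposite strand, was at 24.5 to 30.3 FPKM, and reads of the shared bases cannot be told apart without strand.

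SMAD2 was the signal transducer that passed the test. The gene (chromosome 18, 47808957 to 47931146, minus strand) was at 51.7 and 45.5 FPKM in DMSO and at 30.8 and 31.7 FPKM in IWP2. Both IWP2 libraries sat more than 10 FPKM under the lower DMSO library. The mean fell to 64.3% of the DMSO mean, a log2 change of -0.62 ± 0.097 (SE, n = 2 per group, limma adjusted p = 0.0193). SMAD3 (chromosome 15, 67063763 to 67195195, plus strand), the closely related transducer that binds DNA directly, was at 15.5 and 11.4 FPKM in DMSO and at 9.72 and 8.95 FPKM in IWP2. The groups were separate, but the DMSO libraries differed from each other by more than the lower of them differed from IWP2, and the log2 change of -0.47 (95% interval -0.89 to -0.050) did not pass (limma adjusted p = 0.138). Without DMSO 1 it was -0.27.

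SMAD4 (chromosome 18, 51028394 to 51085045, plus strand), the common partner that the activin and BMP arms share, was the single gene of the 10 whose groups overlapped. It was at 39.2 and 37.5 FPKM in DMSO and at 35.7 and 38.1 FPKM in IWP2. Its log2 change was -0.054 with a 95% interval of -0.27 to 0.17 (limma adjusted p = 0.733), so a fold between 0.827 and 1.12 was left within the interval. SMAD2, SMAD4 and SMAD7 all lie on chromosome 18.

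The makeup of the transducers differed between the groups. SMAD2 gave 48.6% and 48.2% of the summed FPKM of SMAD2, SMAD3 and SMAD4 in DMSO and 40.4% and 40.3% in IWP2. SMAD4 gave 36.9% and 39.7% in DMSO and 46.9% and 48.4% in IWP2, so that it replaced SMAD2 as the most abundant of the 3. SMAD3 was the smallest part throughout, from 11.4% to 14.5%. The ratio of SMAD2 plus SMAD3 to SMAD4 was 1.71 and 1.52 in DMSO and 1.13 and 1.07 in IWP2. That is a log2 difference of -0.55 (exact permutation p = 0.333, the smallest possible; adjusted p = 0.556). The ratio of SMAD2 to SMAD3 was 3.34 and 3.98 in DMSO and 3.16 and 3.54 in IWP2, which overlapped (exact permutation p = 0.667).

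Leaving out DMSO 2 kept the call on SMAD2 (limma adjusted p = 0.0470). Its adjusted p was 0.0755 without DMSO 1, 0.160 without IWP2 1, 0.136 without IWP2 2 and 0.0786 with no filter on low genes. MTCO2P2, a mitochondrial pseudogene inside SMAD2 on the same strand, was listed at 0, 77.8, 14.97 and 49.9 FPKM in DMSO 1, DMSO 2, IWP2 1 and IWP2 2. Its part in the SMAD2 values was not tested.

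**Figure D2:**
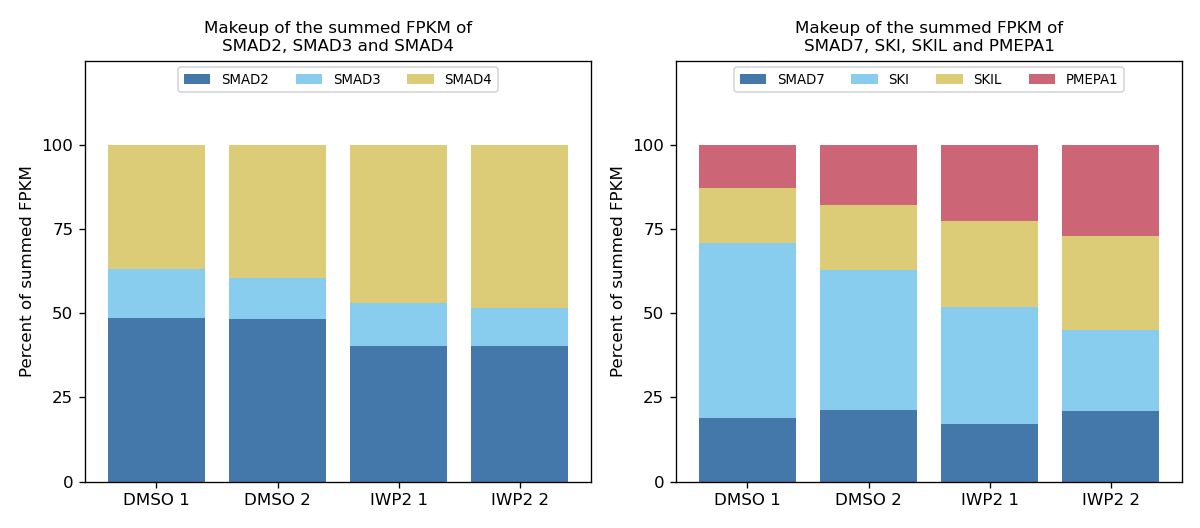
Percent of the summed FPKM (vertical axis) that each gene contributed in each library, for SMAD2, SMAD3 and SMAD4 on the left and for SMAD7, SKI, SKIL and PMEPA1 on the right. In the IWP2 libraries SMAD4 takes 46.9% and 48.4% on the left and SKI takes 34.7% and 23.9% on the right, beside 36.9% and 39.7% and 51.8% and 41.5% in DMSO.

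The 4 inhibitors went in different directions. PMEPA1 rose, SKIL was higher and SMAD7 and SKI were lower in both IWP2 libraries, and PMEPA1 alone passed the test. PMEPA1, a membrane-anchored protein that keeps SMAD2 and SMAD3 from the receptor (chromosome 20, 57648392 to 57711536, minus strand), was at 28.5 and 30.7 FPKM in DMSO and at 38.7 and 41.3 FPKM in IWP2. All values within a group lay within 3 FPKM of each other. Its mean was 135.3% of the DMSO mean, a log2 change of 0.42 ± 0.090 (SE, n = 2 per group, limma adjusted p = 0.0423). SKIL, also called SnoN, which with SKI binds SMAD4 and recruits corepressors (chromosome 3, 170357678 to 170396835, plus strand), was at 36.6 and 32.9 FPKM in DMSO and at 43.9 and 42.9 FPKM in IWP2. The IWP2 libraries were both above, and the log2 change of 0.32 (95% interval 0.081 to 0.55) did not pass (limma adjusted p = 0.0921).

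SMAD7, the inhibitory SMAD that occupies the receptor and brings ubiquitin ligases to it (chromosome 18, 48919853 to 48950711, minus strand), was at 42.3 and 36.7 FPKM in DMSO and at 29.4 and 32.2 FPKM in IWP2. The IWP2 libraries were both lower, with a log2 change of -0.35 (95% interval -0.62 to -0.069, limma adjusted p = 0.109, not called). SKI (chromosome 1, 2228695 to 2310119, plus strand), the founding member of its corepressor family, had the highest mean of the 10 genes in both groups and the widest spread between replicates. It was at 115.5 and 71.2 FPKM in DMSO and at 59.6 and 36.6 FPKM in IWP2. Replicate 1 of each group exceeded replicate 2 by a wide margin, although the groups stayed apart. The mean with IWP2 was 51.5% of the DMSO mean, but the log2 change of -0.94 had an SE of 0.31 and a 95% interval of -1.75 to -0.14 (limma adjusted p = 0.125, not called). It was -0.60 without DMSO 1 or without IWP2 2, and -1.29 without DMSO 2 or without IWP2 1. The share of summed FPKM from mitochondrial genes ran in the same order within groups, at 9.57% in DMSO 1, 6.25% in DMSO 2, 8.95% in IWP2 1 and 6.92% in IWP2 2, and its part in the SKI values was not tested.

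Within the family, SKI exceeded SKIL by 3.16 and 2.17 times in DMSO, and the ratio was 1.36 and 0.853 in IWP2. The log2 ratio differed by -1.28 between groups, with group SDs of 0.38 and 0.47 (exact permutation p = 0.333, the smallest possible; adjusted p = 0.556). The ratio of the 4 inhibitors together to SMAD2, SMAD3 and SMAD4 together was 2.09 and 1.82 in DMSO and 2.25 and 1.94 in IWP2. These overlapped (exact permutation p = 0.667), so the sum of inhibitor transcripts per transducer transcript was not separated by treatment.

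PMEPA1 lost its call without any 1 of the libraries: its limma adjusted p was 0.138 without DMSO 1, 0.0956 without DMSO 2, 0.185 without IWP2 1 and 0.234 without IWP2 2. It was 0.0743 after rescaling each library to the same sum, 0.0874 without the intensity trend in the variance and 0.0973 with no filter on low genes, and NKILA, a noncoding gene overlapping PMEPA1 on the opposite strand, was at 0.875 to 1.65 FPKM.

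**Figure D3:**
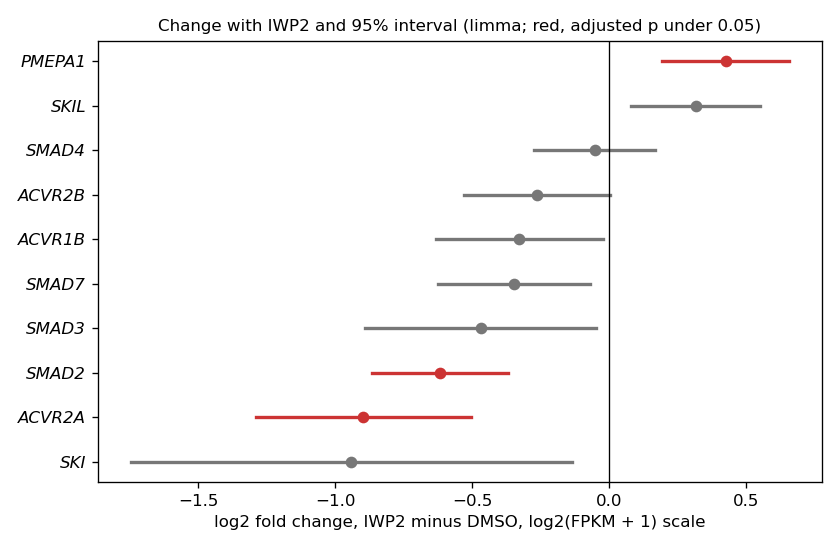
Log2 change of each gene with IWP2 (horizontal axis, IWP2 minus DMSO on the log2(FPKM + 1) scale) with its 95% interval from limma, in red for adjusted p under 0.05. ACVR2A at -0.90, SMAD2 at -0.62 and PMEPA1 at 0.42 are red, SMAD4 lies closest to 0, and SKI has the widest interval.

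The order of mean FPKM among the 10 genes is given as a description, with no test. In DMSO it ran from SKI through SMAD2, SMAD7, SMAD4, SKIL, PMEPA1, SMAD3, ACVR1B and ACVR2B to ACVR2A. Neighbours whose DMSO libraries overlapped were SMAD7 and SMAD4, and SMAD3 and ACVR1B. In IWP2 the order was SKI, SKIL, PMEPA1, SMAD4, SMAD2, SMAD7, ACVR1B, SMAD3, ACVR2B and ACVR2A. There SKI overlapped SKIL, SMAD2 overlapped SMAD7, ACVR1B overlapped SMAD3 and SMAD3 overlapped ACVR2B. Of the 3 genes called, SMAD2 had rank 2 in DMSO and rank 5 in IWP2, PMEPA1 had ranks 6 and 3, and ACVR2A was last in both.

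Promoter sequence was read for the inhibitor genes because SMAD7, SKIL and PMEPA1 are known SMAD-induced genes, yet SMAD7 lay lower and the other two higher. RefSeq windows (GRCh38.p14) were found for 9 of the 10 genes, all but SKI. The 250 bases before the start nearest to the gene's 5′ end were searched on both strands. That start was not always at the 5′ end printed above. The windows of SMAD3 (67065352 to 67065601) and SMAD4 (51029963 to 51030212) lie inside their gene intervals, as do those of ACVR2A and SMAD2. The matches below hold for these windows only. The SMAD box CAGAC, read as GTCTG on the other strand, was present in SMAD7 with 2 matches and in SKIL with 1, and in none of the other 7. It occurs in 38% of 35116 such windows. The GC-rich SMAD element GGCGC, read as GCGCC on the other strand, was found in 7 of 9 windows, not in ACVR2A or SMAD7. It occurs in 44.5% of all windows, which were not matched for G and C content. That content reached 81.2% in the part of the ACVR1B window outside exons, so no enrichment is read from this share. The TCF/LEF elements CTTTGAT and CTTTGAA, the FOXH1 element AATCCACA and the palindrome GTCTAGAC, which contains no CAGAC, had no match in the 9 windows. Their shares over all windows were 2.26%, 3.8%, 0.709% and 0.182%. A match is a description of letters and not evidence of binding. All 250 bases of the SMAD7 window, with both of its matches, lie inside exon sequence that GENCODE 29 annotates for SMAD7 itself. This window (48950966 to 48951215) lies beyond 48950711, the 5′ end of the SMAD7 interval given above. That interval, as deposited, is therefore not the one of GENCODE 29. The bases between 48950711 and the window were not searched. The lack of an element in the SMAD7 window therefore says nothing about those bases. The windows of ACVR2A and SMAD2 also lie wholly inside exons of their own genes. The SMAD7 sites (chr18:48951165-48951194 and chr18:48951076-48951105, minus strand) are 30-base stretches whose SMAD boxes begin 217 and 128 bases before the start. The SKIL stretch is chr3:170357465-170357677 on the plus strand and the PMEPA1 stretch is chr20:57711537-57711722 on the minus strand, each cut where annotated exons of coding genes begin. They are printed 5′ to 3′ with the SMAD box in capitals.
SMAD7 site A: gccggacgccccCAGACctctgaggttcga
SMAD7 site B: ttcttattttgcCAGACgtctcatgcgggg
SKIL: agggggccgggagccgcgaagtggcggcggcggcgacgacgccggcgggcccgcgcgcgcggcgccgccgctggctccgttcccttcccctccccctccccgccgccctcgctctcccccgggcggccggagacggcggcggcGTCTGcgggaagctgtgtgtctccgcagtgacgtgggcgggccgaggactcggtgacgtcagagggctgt
PMEPA1: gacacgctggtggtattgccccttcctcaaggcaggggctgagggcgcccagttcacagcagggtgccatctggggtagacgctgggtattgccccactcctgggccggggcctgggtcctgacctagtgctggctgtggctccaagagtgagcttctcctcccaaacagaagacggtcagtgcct
The SKIL stretch was 79.8% G and C and the PMEPA1 stretch 63.4%, and the one with a SMAD box was not the one whose gene was called.

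The rest of the pathway was read from lists of its other parts. Among 7 other receptors and co-receptors, 5 passed the filter on low values and 3 were called lower, with none higher. TGFBR1, the TGF-β type I receptor, was at 19.0 and 18.7 FPKM in DMSO and at 9.71 and 8.71 FPKM in IWP2 (log2 change -0.96, limma adjusted p = 0.00722). TDGF1 (CRIPTO), a co-receptor that NODAL needs and activin does not, was at 202.8 and 221.2 FPKM in DMSO and at 103.5 and 98.6 FPKM in IWP2 (log2 change -1.06, limma adjusted p = 0.00334). CFC1, the related co-receptor, fell from 3.15 and 1.93 FPKM to 0.480 and 0.487 FPKM (limma adjusted p = 0.0276). TGFBR2 was at 1.77 to 2.50 FPKM in DMSO and 1.58 to 1.68 FPKM in IWP2 and did not pass, and ACVR1C, the other type I receptor that accepts NODAL, did not reach 0.2 FPKM in any library. ACVR1B and TGFBR1 were thus the SMAD2/3-activating type I receptors with transcripts above that level.

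Among 16 ligand and secreted antagonist genes, 13 passed the filter, 3 were called lower and 1 higher. Endogenous activin transcripts were close to absent: INHBA was at 0.0168 to 0.0477 FPKM and INHBB at 0 to 0.0497 FPKM over the 4 libraries. FST, which encodes the activin-binding antagonist follistatin, was at 58.2 and 51.7 FPKM in DMSO and at 13.8 and 14.996 FPKM in IWP2 (log2 change -1.86, limma adjusted p = 0.00118). LEFTY1, an antagonist of NODAL, was at 97.0 and 57.1 FPKM in DMSO and at 13.6 and 13.3 FPKM in IWP2 (limma adjusted p = 0.00643). CER1, a secreted antagonist of NODAL and BMP, was at 1612 and 2048 FPKM in DMSO and at 38.6 and 34.2 FPKM in IWP2 (log2 change -5.60, limma adjusted p = 0.000302). GDF3, a NODAL-related ligand, rose from 5.29 and 6.52 FPKM to 11.7 and 13.9 FPKM (limma adjusted p = 0.0167). NODAL itself was at 12.2 and 6.07 FPKM in DMSO and at 9.02 and 9.81 FPKM in IWP2, where the groups overlapped.

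The intracellular regulators of SMADs held few calls. Of 22 tested, 2 were called lower and none higher, or 9.09% beside the 13.3% of all genes. LDLRAD4, a relative of PMEPA1 that also holds SMAD2 and SMAD3 from the receptor, was at 3.76 and 4.21 FPKM in DMSO and at 1.25 and 1.32 FPKM in IWP2 (log2 change -1.13, limma adjusted p = 0.0117), the direction opposite to PMEPA1. WWP1, a ubiquitin ligase, was at 27.8 and 37.6 FPKM in DMSO and at 16.3 and 19.5 FPKM in IWP2 (limma adjusted p = 0.0417). SMURF1 and SMURF2, ligases that act with SMAD7, overlapped between groups, at 11.6 to 13.0 and 9.06 to 9.84 FPKM in DMSO and at 11.9 and 9.14 to 9.88 FPKM in IWP2. Neither call of this list held without any 1 of the libraries, and none held without the filter on low genes.

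Among 10 nuclear partners, 3 were called lower and none higher. FOXH1, the DNA-binding partner of SMAD2 and SMAD3, was at 26.3 and 26.9 FPKM in DMSO and at 15.8 and 17.98 FPKM in IWP2 (log2 change -0.63, limma adjusted p = 0.0209). KDM6B, a histone demethylase, fell from 7.57 and 8.90 FPKM to 1.82 and 1.88 FPKM (limma adjusted p = 0.00380). ZEB2, a SMAD-binding repressor, fell from 7.07 and 12.7 FPKM to 0.533 and 0.729 FPKM (limma adjusted p = 0.00624). The coactivator genes EP300 and CREBBP and the corepressor genes HDAC1, NCOR1 and SIN3A did not pass.

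Of 22 genes known as targets of activin, NODAL or TGF-β, 9 were called lower and 6 higher, or 68.2% beside the 13.3% of all genes. The lists overlap, so their counts are not separate. CER1, LEFTY1, LEFTY2 and NODAL were also counted among the ligands and antagonists, FOXA2 among the endoderm markers and NANOG among the pluripotency markers. EOMES, MIXL1 and T were also counted among the nascent mesoderm markers. TDGF1, which is not in the target list, was counted among both the other receptors and the pluripotency markers. The lower group included the mesendoderm genes EOMES, MIXL1, GSC, T, FOXA2, CER1 and LEFTY1, and JUNB. EOMES, a T-box factor, was at 137.8 and 152.6 FPKM in DMSO and at 12.8 and 12.6 FPKM in IWP2 (log2 change -3.41, limma adjusted p = 0.000302). The higher group included BAMBI, GADD45B, TAGLN, THBS1 and CTGF. CTGF was at 15.7 and 10.03 FPKM in DMSO and at 220.5 and 244.3 FPKM in IWP2 (log2 change 4.10, limma adjusted p = 0.000982). BAMBI, a decoy receptor for the family, was at 320.0 and 284.3 FPKM in DMSO and at 394.5 and 438.8 FPKM in IWP2 (limma adjusted p = 0.0464). Of the inhibitors that are SMAD-induced genes themselves, PMEPA1 was called higher, while SKIL, at a log2 change of 0.32, and SMAD7, at -0.35, were not called.

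The BMP arm, which shares SMAD4, had 3 genes called higher and 2 lower of 11 tested. ID1, a direct BMP target, was at 789.4 and 643.6 FPKM in DMSO and at 1772 and 2137 FPKM in IWP2 (log2 change 1.45, limma adjusted p = 0.00616), and ID3 and the receptor BMPR1A were also higher. SMAD6, the inhibitory SMAD of the BMP arm, was at 106.2 and 126.4 FPKM in DMSO and at 64.0 and 67.4 FPKM in IWP2 (log2 change -0.81, limma adjusted p = 0.0125), and ACVRL1 was the other called lower. SMAD1, the BMP counterpart of SMAD2, was at 12.5 and 11.7 FPKM in DMSO and at 12.3 and 11.9 FPKM in IWP2. Whether SMAD2 and SMAD1 differed in their response was not tested. Without IWP2 1, and likewise without IWP2 2, 0 calls were left among the other receptors, the nuclear partners and the BMP arm, and GDF3 lost its call without any 1 of the 4 libraries.

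**Figure D4:**
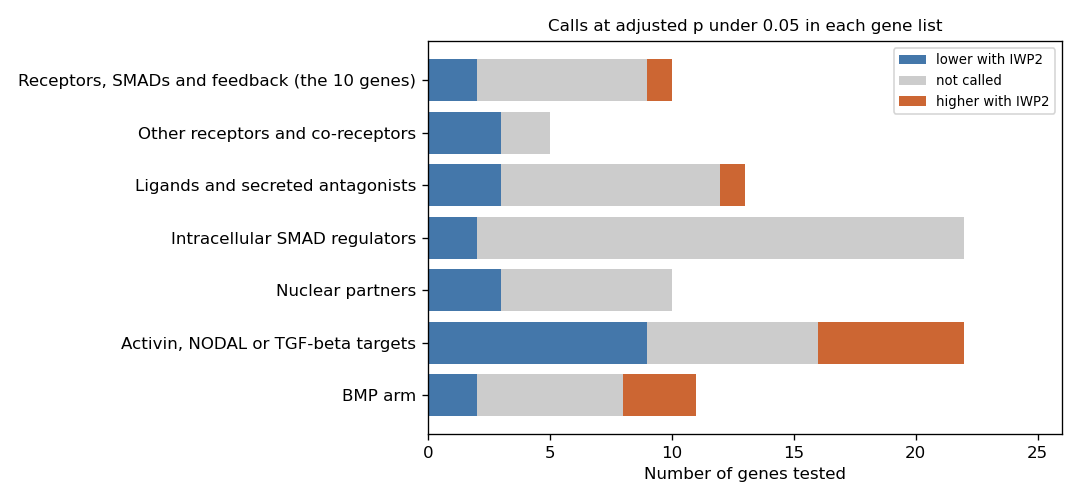
Number of genes tested in each list (horizontal axis), divided into those called lower with IWP2, not called and called higher with IWP2 at an adjusted p under 0.05 in limma. The target list has the most calls in both directions, 9 lower and 6 higher, and the SMAD regulators have 2 calls among 22.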

How the data were processed

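RNA-seq libraries of H1 cells (2 DMSO, 2 IWP2) were made with an Illumina TruSeq kit from total RNA, with no strand marking given in the sources used here. The authors deposited 1 table of FPKM values per gene, whose submitters' processing notes name BWA, Bowtie, RSEM and hg19 without versions or roles. The gene intervals in the table are those of GRCh38 with starts counted from 0: 97.3% of 58102 rows matched GENCODE 29. Positions are therefore given on GRCh38 and counted from 1, and the SMAD7 interval was not among the matches. Read depth is unknown, since FPKM holds no counts, and column sums ran from 616418 to 653850 FPKM, which differs from TPM. The DMSO columns carry no sample title of their own, so the DMSO libraries are numbered as the columns of the table number them, and the replicate block rests on those numbers.

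The row with the highest mean was kept for a repeated symbol, and 15957 genes with a mean FPKM of at least 0.5 were tested with limma 3.58.1 (R 4.3.3) on log2(FPKM + 1), with an intensity trend and Benjamini-Hochberg adjustment. All 10 genes passed the filter. Ratios within a library were compared by an exact permutation test. The fit was tested on simulated data. All 10 genes were to be named, and from each other list those called plus up to 4 not called, in order of mean FPKM; further genes were named after their values were seen. The genes and lists were chosen with earlier results of these data known. Alternatives are given in the closing section. No columns were left out. Some genes of the lists are counted but not reported here by name.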

Additional observations from a re-analysis of the deposited data

How the results depend on the processing

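With no filter on low genes, the fit called 384 genes (118 higher, 266 lower) and 0 of the 10 genes (0 higher, 0 lower). In that fit the other lists had 0 ligand or antagonist genes, 2 targets and 0 BMP-arm genes higher, and 1 receptor, 0 SMAD regulators, 1 partner, 5 targets and 1 BMP-arm gene lower. The cause was not tested. The count of the 10 genes called higher was 0 after rescaling each library to the same sum and 0 without the intensity trend. SMAD regulators called lower numbered 1 under quantile normalisation and 1 without the trend. Leaving out 1 library at a time, which assumes that the lone library varies like the other group, gave 187 to 934 genes called (46 to 384 higher, 140 to 599 lower) and 0 to 1 of the 10 genes (0 higher, 0 to 1 lower). The ranges for the lists were 0 to 3 receptors lower, 0 ligand or antagonist genes higher and 2 to 4 lower, 0 SMAD regulators lower, 0 to 2 partners lower, 2 to 6 targets higher and 3 to 10 lower, 0 to 1 BMP-arm genes higher and 0 to 2 lower, and 5 to 8 Wnt targets lower. The log2 ratio differences ranged from -0.98 to -0.63 for ACVR2A to ACVR2B, from -0.25 to 0.0027 for SMAD2 to SMAD3, from -1.62 to -0.94 for SKI to SKIL, from -0.64 to -0.47 for SMAD2 plus SMAD3 to SMAD4 and from -0.0069 to 0.21 for inhibitors to SMADs. No log2 change of the 10 genes changed sign under any of 14 alternatives.

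Libraries of the groups share only a number, and the deviations of same-numbered libraries correlated at 0.138 over genes. With the replicate number as a block, 1922 genes were called (849 higher, 1073 lower), and of the 10 genes 0 were higher and 3 lower: SKI was called (limma adjusted p = 0.00685) at log2 changes of -0.94 within each number, and PMEPA1 was not (adjusted p = 0.0517). Depth is unknown, and 2 libraries per group limit the precision.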
